A study of Arabidopsis thaliana with 5 samples.

Results

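The genes described here are the 4 HD2 histone deacetylases of Arabidopsis thaliana, HD2A (AT3G44750), HD2B (AT5G22650), HD2C (AT5G03740) and HD2D (AT2G27840), and its nucleolins NUC1 (AT1G48920) and NUC2 (AT3G18610). They were taken by locus, 6 of the 33602 loci in the deposited tables, and all 6 had enough reads to be tested. The set was selected from earlier results of the same comparison, in which values of these genes were already known, so the differences between the groups are given as a description and no p-value is attached to any of the 6. RNA came from nuclei sorted from root tips of 0.5 cm, cut from seedlings grown for 5 days, with 120000 GFP-positive nuclei per library. There were 2 libraries from Col-0 plants (replicates 2 and 4 of the labels) and 3 from the smr1 mutant (replicates 1, 2 and 4), called biological replicates in the submitters' design text. Seedlings of either genotype carried SMR1:GUS-GFP, a reporter whose fluorescence marks nuclei in which the promoter of SMR1 is active, so the gate that selected the nuclei uses the promoter of the gene that is mutated. SMR1 encodes an inhibitor of cyclin-dependent kinases that promotes endoreplication, and the comparison asks which transcripts differ when it is mutated. The allele is not given in the sources used here. Each library was made from the pooled nuclei of many seedlings and of every root cell type in which the reporter is active.

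HD2 proteins are histone deacetylases known only from plants, unrelated in sequence to the RPD3-type enzymes that plants share with animals and fungi, and they are found mainly in the nucleolus. HD2A takes part in the silencing of surplus ribosomal RNA genes, HD2A and HD2B act in the root meristem, and HD2C has been linked to pre-rRNA processing and to abscisic acid responses. Nucleolins are abundant RNA-binding proteins of the nucleolus. NUC1 is needed for the normal organisation of the rRNA genes and for processing of their transcripts, and NUC2 is its paralogue, known to become more abundant in plants that lack NUC1.

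The 5 libraries held between 24918795 and 26823753 reads each, and a floor of 3 reads came to 0.112 to 0.120 CPM (reads scaled to library depth). Levels below are CPM adjusted by TMM factors, which correct for differences in library composition, or TPM, which also divides by transcript length and is used where genes are set against each other. As a check of the labels, SMR1 itself was at 10.97 and 21.6 CPM in Col-0 and between 4.70 and 7.06 CPM in smr1. All 7 markers of root tissue were detected in every library, with PYK10, a root beta-glucosidase, the most abundant. Of the 7, 2 had smr1 values all above Col-0, WER and GL2 of the epidermis, while RHD6, of root hair cells, had them all below. PYK10, SCR, SHR and COBL9 overlapped between the groups. Over all tested loci, 13.7% had smr1 values all above Col-0, and 23.8% were separate in either direction. Nothing on cell types is read from these markers. Libraries did not group by genotype over the whole table. By chi-square per degree of freedom, Col-0 replicate 2 was nearer to smr1 replicate 2 (15.7) than to Col-0 replicate 4 (46.8), and Col-0 replicate 4 was nearest to smr1 replicate 1 (18.1). In bulk samples of this kind, fewer cells of a type and less RNA per cell cannot be told apart.

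Among the 6 genes, HD2A differed most between the genotypes, HD2B, NUC1 and HD2D had from 1.93 to 2.20 times the Col-0 level in smr1, and HD2C and NUC2 overlapped between the groups. By edgeR's quasi-likelihood test adjusted over all 20151 loci, 0 of the 6 passed the threshold of 0.05, where 0.00496% of all loci did, and 3 of the 6 had an unadjusted p under 0.05, as had 6.85% of all loci. DESeq2, run as an alternative, called HD2A alone of the 6, and 0.23% of its 17800 loci with an adjusted p. In 4 of the 6, the lowest smr1 value exceeded the highest Col-0 value, which held for 13.7% of all tested loci, and the groups were separate in either direction for 23.8%. A fitted fold of at least 2 was found for 3 of the 6 and for 1.5% of all tested loci. Since this contrast was used to choose the genes, nothing is read from these counts. The median log2 fold change (smr1 over Col-0) was 1.00 over the 6 genes and 0.0065 over all tested loci.

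**Figure D1:**
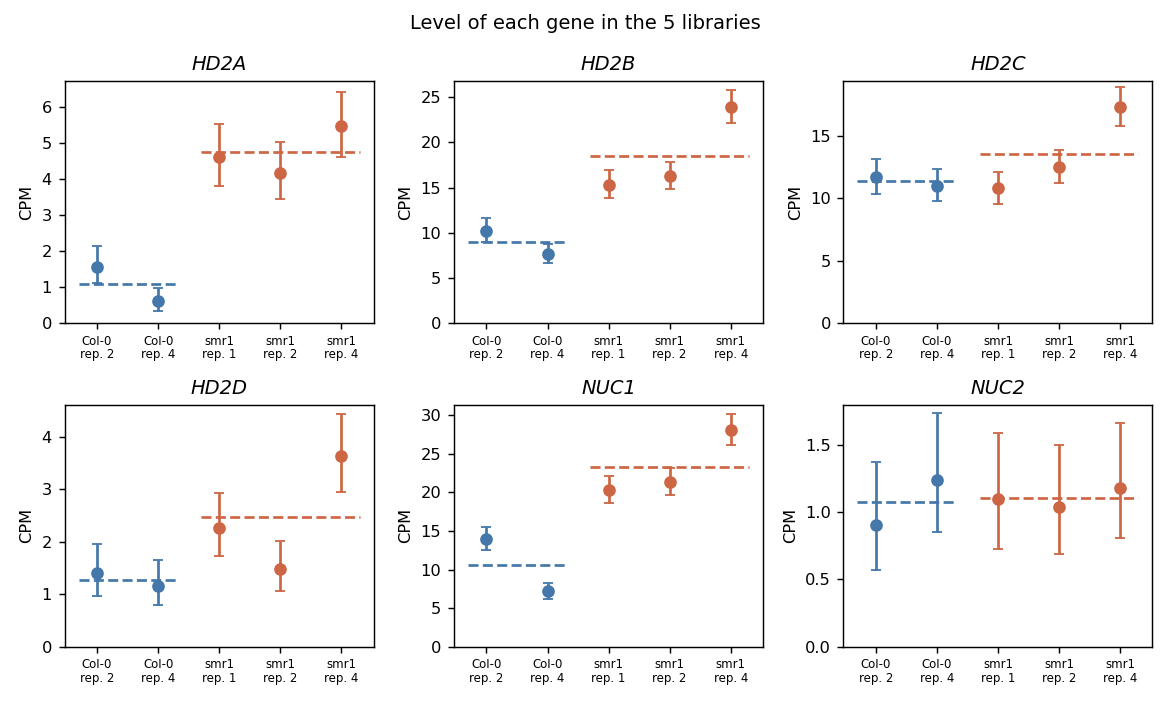
Level of each of the 6 genes in CPM (vertical axis, from 0, its range differing between panels) in the 5 libraries (Col-0 in blue, smr1 in orange). Points are libraries, bars are exact 95% Poisson intervals of the reads, which cover counting error only, and dashed lines are group means; HD2A, HD2B, HD2D and NUC1 have all 3 smr1 points above both Col-0 points, while HD2C and NUC2 do not.

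HD2A was counted with 38 reads in Col-0 replicate 2 and 16 in replicate 4, against 118, 113 and 149 for smr1 (replicates 1, 2 and 4, the order used throughout). In the same order these are 1.56 and 0.600 CPM for Col-0, then 4.61, 4.18 and 5.48 CPM for smr1. The groups were far apart, the lowest smr1 library being 2.68 times the highest Col-0 library. The Col-0 libraries also differed from each other, and their 95% Poisson intervals, from 1.10 to 2.14 and from 0.343 to 0.974 CPM, did not overlap. Means were 1.08 ± 0.68 CPM in Col-0 (SD, n = 2) and 4.76 ± 0.66 CPM in smr1 (SD, n = 3). The fitted log2 fold change came to 2.15 (standard error, SE, 0.40). Leaving out Col-0 replicate 4 gave 1.60, and leaving out replicate 2 gave 2.97. The size thus depended on which Col-0 library was used, while the direction was the same in all 5 fits that left out a library.

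HD2B, the paralogue most often studied with HD2A, was measured in Col-0 at 10.2 CPM (249 reads) and 7.61 CPM (203 reads). The smr1 values were 15.3 CPM (392 reads), 16.3 CPM (440 reads) and 23.9 CPM (651 reads). All smr1 libraries were above both Col-0 libraries, and smr1 replicate 4 stood highest. Col-0 averaged 8.92 ± 1.85 CPM (SD, n = 2), smr1 18.5 ± 4.72 CPM (SD, n = 3), and the fitted log2 fold change came to 1.05 (SE 0.25).

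HD2C differed little within Col-0, with 11.7 CPM (285 reads) and 11.0 CPM (294 reads). The smr1 values were 10.8 CPM (276 reads), 12.5 CPM (338 reads) and 17.3 CPM (471 reads). Replicate 1 of smr1 lay below both Col-0 libraries and replicate 4 well above them, so the groups overlapped. Col-0 averaged 11.4 ± 0.48 CPM (SD, n = 2) against 13.5 ± 3.38 CPM for smr1 (SD, n = 3). The fitted log2 fold change came to 0.25 (SE 0.22), or 0.037 when smr1 replicate 4 was left out.

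HD2D, the shortest of the family, was measured in Col-0 at 1.40 CPM (34 reads) and 1.16 CPM (31 reads). The smr1 values were 2.27 CPM (58 reads), 1.48 CPM (40 reads) and 3.64 CPM (99 reads). The groups did not overlap, but smr1 replicate 2 was only 1.06 times the higher Col-0 library, a gap well inside the Poisson interval of either, and within smr1 the highest library was 2.46 times the lowest. Col-0 averaged 1.28 ± 0.17 CPM (SD, n = 2) and smr1 2.46 ± 1.09 CPM (SD, n = 3). The fitted log2 fold change came to 0.95 (SE 0.42), or 0.55 when smr1 replicate 4 was left out.

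NUC1 was measured in Col-0 at 14.0 CPM (341 reads) and 7.16 CPM (191 reads). The smr1 values were 20.4 CPM (521 reads), 21.4 CPM (577 reads) and 28.1 CPM (765 reads). As with HD2A and HD2B, Col-0 replicate 4 was the lowest of all libraries and smr1 replicate 4 the highest. Col-0 averaged 10.6 ± 4.84 CPM (SD, n = 2), less than the smr1 mean of 23.3 ± 4.22 CPM (SD, n = 3). The fitted log2 fold change came to 1.14 (SE 0.30). Leaving out Col-0 replicate 4 gave 0.72, and leaving out replicate 2 gave 1.69.

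NUC2 stayed near 1 CPM throughout, at 0.904 CPM (22 reads) and 1.24 CPM (33 reads) for Col-0. The smr1 values were 1.10 CPM (28 reads), 1.04 CPM (28 reads) and 1.18 CPM (32 reads), and all 3 lay between the Col-0 values. The fitted log2 fold change came to 0.039 (SE 0.29), and to -0.17 and 0.28 when Col-0 replicate 2 or 4 was left out. At this depth the Poisson interval of each library covers all 5 values, from 0.566 to 1.37 CPM for the lowest library, and a small difference in either direction was not detectable. Per length, as a ratio of TPM, NUC1 was 17.95 and 6.70 times NUC2 in the Col-0 libraries, then 21.6, 23.9 and 27.7 times in those of smr1. The ratio was therefore lowest by far in Col-0 replicate 4, and the groups did not overlap. It rests on 22 to 33 reads of NUC2 in each library, whose counting error carries into it. The gap between 17.95 and 21.6 is therefore not read as a difference.

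Per length, the order of the genes was not the same in the 2 genotypes. In Col-0 HD2C was first, with 10.3 and 9.96 TPM, followed by mean values of 7.54 for HD2B, 4.44 for NUC1, 1.97 for HD2D, 1.21 for HD2A and 0.390 for NUC2, and no neighbours in that order overlapped in their 2 libraries. In smr1 it was 16.3 for HD2B, 12.5 for HD2C, 10.2 for NUC1, 5.56 for HD2A, 3.69 for HD2D and 0.420 for NUC2. The ranges of HD2B and HD2C, of HD2C and NUC1, and of HD2A and HD2D overlapped there. Averaged over the 5 libraries, HD2B lay at the 70.4th percentile of the 26551 loci with any read and NUC2 at the 25.7th, so none of the 6 was among the most abundant transcripts of these nuclei.

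Ratios taken within a library do not depend on its scaling. The ratio of HD2B to HD2C in TPM was 0.832 and 0.657 for Col-0, then 1.35, 1.24 and 1.32 for smr1. HD2C was thus the more abundant of the pair in each Col-0 library and HD2B in each smr1 library. The ratio of HD2A to HD2B was 0.202 and 0.105 for Col-0, then 0.399, 0.340 and 0.302 for smr1, again with no overlap. HD2D relative to HD2C overlapped between the groups, at 0.194 and 0.196 in Col-0 and 0.341, 0.192 and 0.339 in smr1.

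As a share of the summed TPM of the HD2 family, HD2A made up 7.67% and 3.57% in Col-0 and between 13.0% and 16.7% in smr1. HD2C made up 45.6% and 52.0% in Col-0 and between 30.9% and 35.1% in smr1. HD2B went from 34.2% to 37.9% in Col-0 and from 41.8% to 43.5% in smr1, while the share of HD2D overlapped, from 8.83% to 10.2% and from 6.72% to 11.1%. The family total was 22.5 and 19.1 TPM in Col-0, and 33.0, 33.2 and 48.1 TPM in smr1. These shares come from the same reads as the levels and are a second view of them, not separate support.

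**Figure D2:**
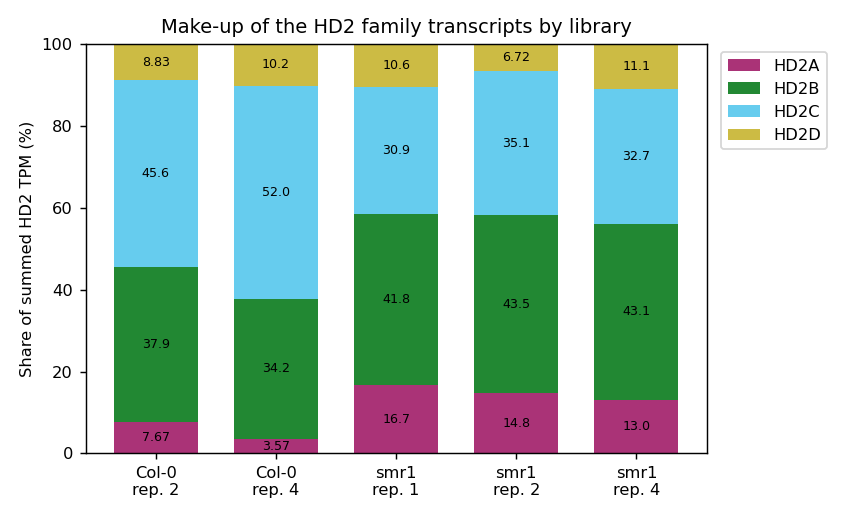
Share of each HD2 gene in the summed TPM of the family (vertical axis, percent) in each library (bars, with the value printed in each segment). HD2C holds the largest share in both Col-0 libraries, at 45.6% and 52.0%, and HD2B in all 3 smr1 libraries, between 41.8% and 43.5%.

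The tables list 2 transcript models for each of HD2A, HD2B and HD2D, and 1 for each other gene. The models differ by short coding stretches, shown here because they decide how the reads of a gene are divided. Each is the coding strand of the RefSeq annotation of TAIR10.1, 5′ to 3′, with the bases that only the first model holds in capitals and up to 20 shared coding bases on either side.
HD2A: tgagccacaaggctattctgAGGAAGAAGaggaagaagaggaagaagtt
HD2B: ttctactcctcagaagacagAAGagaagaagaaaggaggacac
HD2D: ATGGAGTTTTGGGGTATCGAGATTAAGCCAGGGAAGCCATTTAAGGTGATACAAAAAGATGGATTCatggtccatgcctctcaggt
In HD2A and HD2B the difference is 9 and 3 bases beside a run rich in A and G, at chr3:16298779-16298787 and chr5:7535755-7535757. In HD2D it is the first 66 coding bases, which lie in 2 exons between 11862085 and 11862594 of chromosome 2, and the second model begins at a later start codon. The first HD2D model was matched to the annotation by its coding length of 612 nt, because the model of that name there has another length.

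The second model of HD2A was listed at 0 of the gene's 434 reads in the 5 libraries. How many of those reads reach the differing bases was not counted, so no limit on the share of that model is given. The second model of HD2B was listed at 0 reads in both Col-0 libraries and at 8.51, 10.04 and 51.9 reads in smr1 replicates 1, 2 and 4, or 2.17%, 2.28% and 7.97% of the gene. For HD2D, the second model was given 24.4 of 31 reads (78.7%) in Col-0 replicate 4 and 0 reads in each of the 4 other libraries. That library therefore stands apart in its division between models, though not in its HD2D total. The division is an estimate from reads that reach the differing bases, and its error was not analysed here. Reads and CPM summed over models do not depend on it. Summed TPM partly does, since each model is divided by its own length. In Col-0 replicate 4 the shorter second model supplied 1.58 of the 1.95 TPM of HD2D. The rank, ratio and share of HD2D in TPM there, and its narrow distance from HD2A in Col-0, thus depend in part on the division.

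No stretch of 31 bases in the coding sequence of an HD2 gene was found in the coding sequence of another locus, and NUC1 and NUC2 shared 2 such stretches with each other, out of 1612 and 1849. Reads of these genes are thus seldom open to assignment to another locus. All 6 genes are split by introns. HD2A is annotated at chr3:16297656-16299876, HD2B at chr5:7533946-7536496, HD2C at chr5:981859-984289, HD2D at chr2:11861806-11863908 and NUC1 at chr1:18098081-18101732, all on the plus strand of TAIR10.1, and NUC2 at chr3:6404053-6407946 on the minus strand.

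The genes also differed in how alike their patterns were over the libraries. The measure used is the root mean square difference of log2 CPM, each gene centred on its mean over the 5 libraries, so that 0 means the same pattern. It counts the size of the variation as well as its direction, so genes that vary little score as alike. HD2B and NUC1 were the most alike of the 15 pairs, at 0.198. HD2C and NUC2 followed at 0.260, and HD2B and HD2D at 0.281. The value of HD2C and NUC2 reflects that both spread least, since HD2C was highest in smr1 replicate 4 and NUC2 in Col-0 replicate 4. HD2A was nearest to NUC1, at 0.528, with the same lowest and highest library but a wider spread. The least alike pair was HD2A and NUC2, at 1.21.

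Of the 9975 other loci with a mean of at least 10 CPM, the 3 nearest to HD2B were TSO2, a ribonucleotide reductase subunit (0.058), HTA6, a histone H2A (0.059), and HTB2, a histone H2B (0.060). NUC1 was nearest to TSO2 (0.169), to AT2G44120, of the ribosomal protein L30/L7 family (0.184), and to HD2B (0.198). Seen from HD2B, NUC1 ranked 30. HD2C was nearest to SAP130b (0.047), AT1G53645 (0.053), annotated as a hydroxyproline-rich glycoprotein family protein, and TPR3 (0.053), a tetratricopeptide repeat protein, while HD2B ranked 8544 and NUC1 ranked 9590 from it. The CPM of TSO2 were 13.1 and 9.45 for Col-0, then 20.4, 22.7 and 31.9 for smr1. HD2A, HD2D and NUC2 lay below the minimum level for this search. Ranks in this search also count the size of the variation, so they do not compare direction alone.

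**Figure D3:**
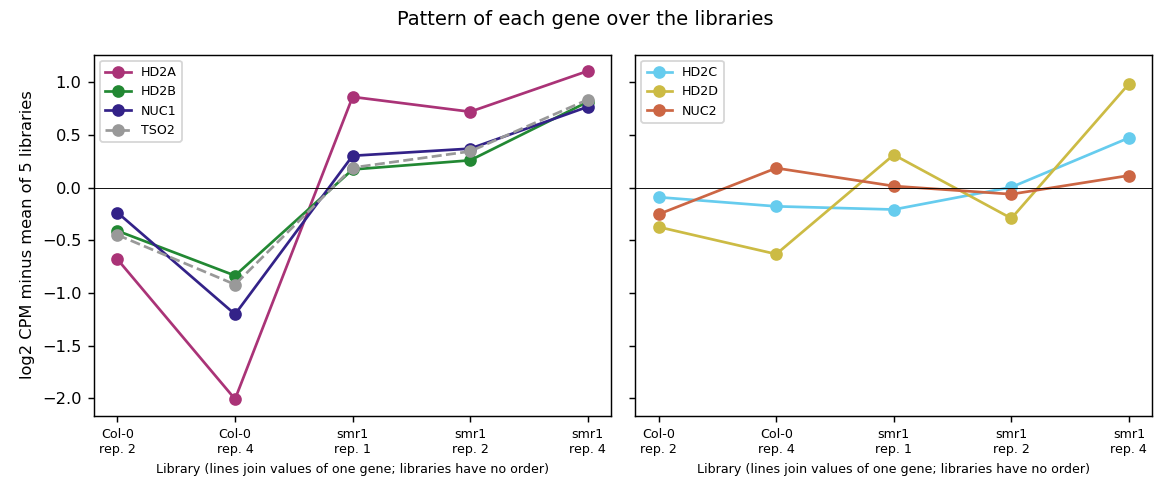
Log2 CPM of each gene minus its mean over the 5 libraries (vertical axis) by library (horizontal axis; lines join the values of a gene and imply no order). On the left, HD2A, HD2B and NUC1 with TSO2, the locus nearest to both HD2B and NUC1, are lowest in Col-0 replicate 4 and highest in smr1 replicate 4; on the right, HD2D shares those extremes but has smr1 replicate 2 close to Col-0, while HD2C and NUC2 spread least.

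Markers of dividing cells, taken as a sum, differed between the same libraries. The 5 markers, CYCB1;1, CDKB1;1, CDKB2;1, KNOLLE and AUR1, which act in mitosis and cytokinesis, summed to 14.5 CPM in each Col-0 library and to between 21.0 and 24.6 CPM in smr1, and none was at 0. The groups were separate for 4 of the 5, with smr1 higher (13.7% of all tested loci), and DESeq2 called CDKB1;1 (0.169% of loci called higher). CYCB1;1 overlapped, at 1.27 and 0.412 CPM in Col-0, then 0.860, 1.22 and 1.32 CPM in smr1. The log2 fold change was 1.34 for CDKB1;1 and between 0.31 and 0.55 for the other markers, so the sum leans on CDKB1;1. The 5 markers of the meristem and stem cell niche were PLT1, PLT2, PLT3, BBM and WOX5. They summed to between 4.99 and 12.5 CPM in Col-0 and between 8.53 and 15.2 CPM in smr1, so the groups overlapped. Of the 4 that could be tested, PLT1 and PLT2 were separate with smr1 higher, as were 13.7% of all tested loci. PLT3 and WOX5 overlapped, with log2 fold changes of 0.54 (SE 0.31) and -0.47 (SE 0.96). WOX5 was counted with 111 and 17 reads in Col-0, then 25, 107 and 17 in smr1. PLT2 was counted with few reads, from 4 (Col-0 replicate 4) to 22 (smr1 replicate 2). BBM was too low to be tested, at 0 reads for Col-0 replicate 4. Its smr1 values also lay above Col-0, but the lowest was 3 reads, the floor, so its order is not read. The part of either cell population in the values of HD2A, HD2B, HD2D and NUC1 was not tested. The 4 leaf photosynthesis genes overlapped too, from 24.0 to 38.9 CPM and from 12.8 to 51.8 CPM.

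The RPD3-type deacetylases and sirtuins that could be tested were not called by edgeR. It called 0.00496% of all tested loci, so the absence of a call says little about a list. Of these 14 genes, 10 were expressed enough to be tested. By DESeq2, 0 were called higher or lower, where 0.23% of its loci were. By edgeR, 0 were called and 0 had an unadjusted p under 0.05, as 6.85% of all tested loci had. Their median log2 fold change was 0.057, in a range of -0.58 to 0.14, and 2 of the 10 had separate groups, HDA19 among them, a share near the 23.8% of all tested loci. HDA19 and HDA6, major nuclear deacetylases, were at 0.14 with an SE of 0.10 and at -0.02 with an SE of 0.14. HDA6 also acts in rRNA gene silencing and was counted with 405 and 494 reads for Col-0, then 427, 438 and 519 for smr1. HDA8 and HDA5 were at 0.12 and 0.11, with SEs of 0.24 and 0.13.

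The opposing enzymes, the histone acetyltransferases, were not called either. All 12 were tested, and 5 had positive log2 fold changes, as had 51.2% of all tested loci. The median of the 12 was -0.026 in a range of -0.94 to 0.40. In either direction edgeR called 0 (0.00496% of all tested loci) and DESeq2 called 0 (0.23% of its loci). By edgeR 0 had an unadjusted p under 0.05, as 6.85% of all tested loci had. HAC5, of the CBP family, was at -0.27 with an SE of 0.16. HAF1, of the TAFII250 family, was at -0.12 with an SE of 0.13, and HAM2, of the MYST family, at 0.11 with an SE of 0.17. None of these acetyltransferases was separate between the groups, where 23.8% of all tested loci were in either direction, and nothing is read from that count.

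Nucleolar proteins that work beside nucleolin on pre-rRNA had values on the side of HD2A and NUC1. These 9 core proteins of the small nucleolar ribonucleoproteins (box C/D particles guide methylation and box H/ACA particles pseudouridylation of rRNA) all had positive log2 fold changes and separate groups, with smr1 higher, as 13.7% of all tested loci had. Their median was 1.22, from 0.98 to 1.77 when each library was left out, and their range 0.64 to 2.45. By edgeR 0 passed, where 0.00496% of all tested loci did, while 9 had an unadjusted p under 0.05 (6.85% of all tested loci). DESeq2 called 4 higher (0.169% of loci), FIB2, NOP56, CBF5 and NOP10. CBF5, the pseudouridine synthase, was at 1.79 with an SE of 0.26, NOP56, a box C/D core protein, at 1.33 with an SE of 0.27, and FIB1, a fibrillarin, at 1.22 with an SE of 0.29. FIB1 was counted with 139 and 78 reads for Col-0, then 232, 274 and 298 for smr1, with Col-0 replicate 4 again the lowest. The list was drawn up with earlier results of these data known, and its median is not independent evidence of a direction.

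The genes listed for rRNA gene silencing, RNA polymerase I and other chromatin factors were mixed. Of 13, including HDA6, 9 had positive log2 fold changes, as had 51.2% of all tested loci. MET1, ATXR6, NRPA1 and NRPA2 had separate groups with smr1 higher, 4 of 13 where 13.7% of all tested loci did, and nothing particular to the list is read from it. Their median was 0.21, and 0.057 without Col-0 replicate 4. By edgeR 0 passed in either direction, where 0.00496% of all tested loci did. Of the 13, 2 had an unadjusted edgeR p under 0.05, as had 6.85% of all tested loci. DESeq2 called 0 of them, and 0.23% of its loci. MET1, the maintenance DNA methyltransferase, was at 0.60 with an SE of 0.21, and NRPA1, the largest subunit of RNA polymerase I, at 0.57 with an SE of 0.22. FAS1, of the chromatin assembly factor CAF-1, was at 0.30 with an SE of 0.20.

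**Figure D4:**
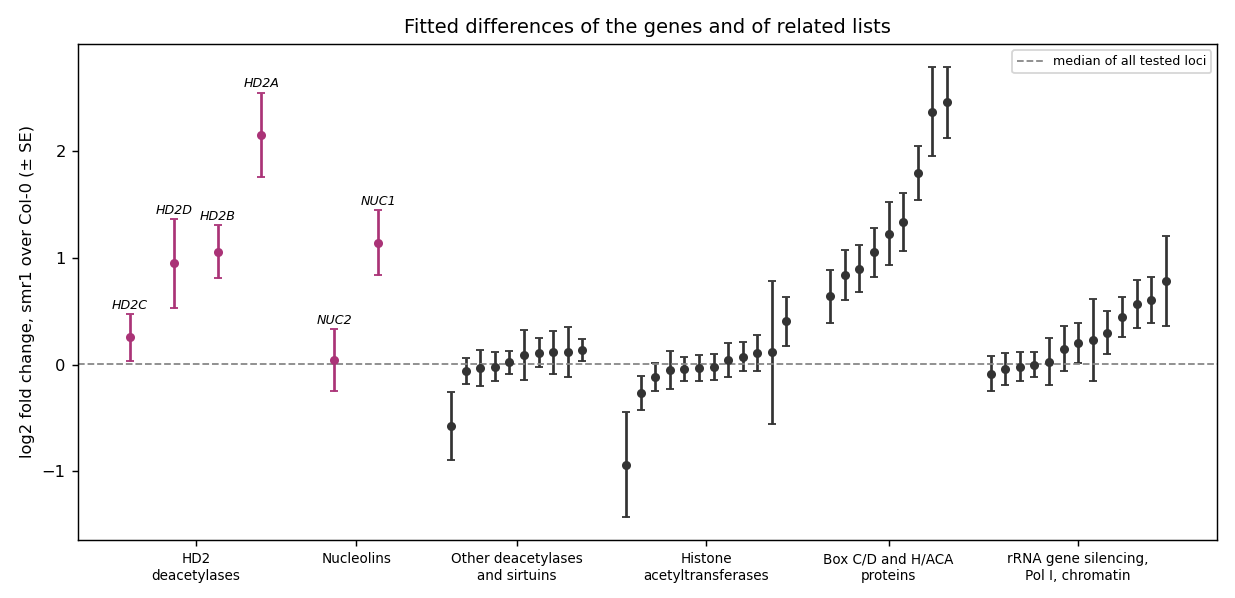
Log2 fold change of smr1 over Col-0 (vertical axis; points are genes, bars are SE) for the 6 genes, named, and for the tested genes of 4 related lists, each sorted by value. The dashed line is the median of all tested loci, 0.0065; the box C/D and H/ACA proteins lie from 0.64 to 2.45, while the medians of the other deacetylases and of the acetyltransferases are 0.057 and -0.026.

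Because HD2A, HD2B, HD2D and NUC1 had higher values in the same libraries, their upstream regions were searched for short elements common in genes of ribosome production and of the cell cycle. The elements were the telo box (AAACCCTAA), the site II element (TGGGCC or TGGGCT) and the E2F element (TTTCCCGC or TTTGGCGC), on both strands, and no match overlapped another. In the 250 bases before the annotated gene start, 0 of the 6 held a telo box, against 2.61% of the same window at 27443 genes. A site II element was held by 2 of 6, HD2C and NUC1, against 19.2%, and an E2F element by 0 of 6, against 0.958%. In these windows HD2C, whose groups overlapped, held 3 site II matches and NUC1 held 1. The regions of HD2C and of the nucleolin pair are shown with matches in capitals, of which NUC2 has none.
HD2C, chr5:981609-981858, plus strand: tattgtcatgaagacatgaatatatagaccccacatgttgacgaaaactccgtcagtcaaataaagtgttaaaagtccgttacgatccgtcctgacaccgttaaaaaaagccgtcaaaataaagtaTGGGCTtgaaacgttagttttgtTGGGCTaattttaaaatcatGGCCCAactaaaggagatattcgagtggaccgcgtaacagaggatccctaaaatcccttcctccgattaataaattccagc
NUC1, chr1:18097831-18098080, plus strand: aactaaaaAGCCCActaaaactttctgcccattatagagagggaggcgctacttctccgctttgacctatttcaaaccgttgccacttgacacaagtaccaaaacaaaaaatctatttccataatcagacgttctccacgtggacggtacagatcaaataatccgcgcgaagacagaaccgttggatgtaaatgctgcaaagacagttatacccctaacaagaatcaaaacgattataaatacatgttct
NUC2, chr3:6407947-6408196, minus strand: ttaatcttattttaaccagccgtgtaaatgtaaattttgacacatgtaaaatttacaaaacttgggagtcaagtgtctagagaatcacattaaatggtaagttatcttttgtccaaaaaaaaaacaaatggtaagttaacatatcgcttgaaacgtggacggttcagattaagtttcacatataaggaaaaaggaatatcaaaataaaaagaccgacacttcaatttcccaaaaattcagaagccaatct

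When the window was widened to 250 bases on either side of the gene start, a telo box was found in 3 of the 6, HD2A, HD2D and NUC1, against 8.38% of all genes. The site II element was found in 3, HD2C, HD2D and NUC1, against 26.9%, and the E2F element in 0, against 2.04%. The telo boxes lay downstream of the gene start, from base 217 in HD2A, 229 in HD2D and 2 in NUC1, and are shown in capitals with 10 bases on either side, all on the plus strand.
HD2A, chr3:16297862-16297890: tactgaagaaAAACCCTAAagagtaaaga
HD2D, chr2:11862024-11862052: acaaactctaAAACCCTAAattcttcttc
NUC1, chr1:18098072-18098100: acatgttctaAAACCCTAAgctgaaaaat
HD2B, whose groups were also separate, held none of the 3 elements in either window. The 250 bases before the start overlap another annotated gene in HD2A (AT3G44740) and in HD2B (AT5G22640). The genes were chosen with this contrast known, and 3 elements were searched in both windows, so no enrichment is read from these counts. A match is a description of the letters, and no statement on the binding of a factor follows from it.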

How the data were processed

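The authors deposited, for each of 5 libraries, a table of 41671 transcript models that gives for each an expected count, or estimated number of reads, and a TPM value, per the file headers. The submitters' processing notes list Salmon 0.7.2, CASAVA and TAIR10 but no roles. The kit was stranded, per the labels' protocols, and the strand setting of the counting is not given there. Among the model lengths, 93.4% can be divided by 3, so they are mostly coding lengths, and reads from untranslated regions would mostly go uncounted. For this work, the deposited expected counts of all models of a locus (33602 loci) were added and rounded, and deposited TPM values were summed without further change.

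All loci were fitted with edgeR 4.0.16 in R 4.3.3 (filterByExpr at 10 reads and 15 in total, TMM factors, robust quasi-likelihood F test on genotype, 3 residual degrees of freedom, Benjamini-Hochberg adjustment at 0.05, two-sided). SEs were taken from the F statistic. The alternatives were DESeq2 1.42.0, other size factors, no filter, a replicate block and each library left out. The fit was tested on simulated counts. Every pair of libraries differed by more than sampling noise (chi-square of at least 15.7 for each degree of freedom).

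The 6 genes and the lists were chosen with earlier results of these data known. The genes named besides the 6 are, per list, up to 3 with the largest absolute log2 fold change and a mean of at least 5 CPM, any past the threshold, HDA6 and HDA19, and the 3 loci nearest in pattern to each of the 6 genes with a mean of at least 10 CPM; any other gene named was chosen after its values were seen. Of 69 list entries, 65 matched a RefSeq name, and the other 4, of the nucleolar list, are counted but not named. Gene positions and sequences are from RefSeq's TAIR10.1. The tables hold no coordinates, and 96.5% of the 34613 models named in both had the same coding length.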

Additional observations from a re-analysis of the deposited data

How the results depend on the processing

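With all 5 libraries, the log2 fold changes of the 6 genes stayed within 2.13 to 2.21 for HD2A, 1.04 to 1.16 for HD2B, 0.24 to 0.38 for HD2C, 0.90 to 0.94 for HD2D, 1.12 to 1.28 for NUC1 and 0.02 to 0.10 for NUC2 under RLE size factors, no expression filter, DESeq2, a replicate block and deposited TPM. Leaving out each library in turn gave 1.60 to 2.97 for HD2A, 0.83 to 1.27 for HD2B, 0.037 to 0.39 for HD2C, 0.55 to 1.21 for HD2D, 0.72 to 1.69 for NUC1 and -0.17 to 0.28 for NUC2. List medians then ran from -0.061 to 0.088 for the other deacetylases and from -0.078 to 0.039 for the acetyltransferases. They ran from 0.98 to 1.77 for the box C/D and H/ACA proteins and from 0.057 to 0.30 for the rRNA gene silencing and chromatin list. Without a Col-0 library, the lone one is assumed to vary like smr1. Over the whole table edgeR called 1 locus higher and 0 lower (798 and 583 at an unadjusted p under 0.05). It called 3 higher without the filter and 0 higher and 0 lower without any 1 library, while DESeq2 called 30 higher and 11 lower; the cause was not tested. With the replicate block, which leaves 1 residual degree of freedom, 2 were called higher. Replicate numbers are shared by only 2 pairs of libraries, and no label says what a number marks, so they are not treated as pairs. Deviations from the group means correlated across loci at 0.397 and 0.185 within these pairs, and at -0.397, -0.185, -0.171 and 0.171 between libraries of unlike number, where 2 Col-0 libraries give mirrored values by construction. HD2D in Col-0 averaged 1.18 TPM from its first model alone, against 1.97 TPM from both models. Precision is limited by having 2 Col-0 libraries, and for HD2A, HD2D and NUC2 also by depth, with 16 to 38 reads in each Col-0 library.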
